A study of Rattus norvegicus with 20 samples.

Results

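Ethanol is oxidized to acetaldehyde by alcohol dehydrogenases in the cytosol, by the cytochrome P450 enzyme encoded by Cyp2e1 in the endoplasmic reticulum and by catalase, encoded by Cat, in peroxisomes. Acetaldehyde is then oxidized to acetate, chiefly by the mitochondrial aldehyde dehydrogenase encoded by Aldh2, and other aldehyde dehydrogenases clear fatty, amino and retinoid aldehydes that arise without any ethanol. The liver is the main site of ethanol oxidation, but many of these enzymes also handle endogenous formaldehyde, lipid aldehydes and hydrogen peroxide in bone and marrow.

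The probe sets of this pathway were taken from the femur arrays by exact gene symbol. Of the 9 names looked up (Adh1, Adh5, Aldh2, Aldh1a1, Aldh3a2, Aldh7a1, Aldh9a1, Cat and Cyp2e1), 8 had a probe set, with 1 probe set each, 8 of the 31042 that were not controls, or 8 of 14217 named genes. The probe annotation has no probe set under the exact symbol Adh1. It uses the newer symbol Adh1c for the gene that RefSeq lists with Adh1 as a synonym, and the 2 probe sets of Adh1c were read beside the 8 and not counted with them. All 8 passed the filter on low signals described with the first test, as did 1 of the 2 Adh1c probe sets.

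RNA was taken from the femora of 20 rats aged 4 weeks, 5 of each strain, with 1 Affymetrix Rat Genome 230 2.0 array per rat. NP (alcohol-nonpreferring) and P (alcohol-preferring) are inbred strains bred from Wistar rats for low and high alcohol preference. NP.P rats carry the 4q22-q34 segment of chromosome 4 from P rats on the NP background, and P.NP rats carry the NP segment on the P background, each strain being a single congenic line made by backcrossing. The methods speak of the femur and the labels of its proximal part, and marrow was extracted together with bone. No ethanol exposure is stated for these rats. The methods state that the study used male rats, and the labels give no sex. The values are MAS5 signals, linear intensities which the authors scaled to a common trimmed mean on every array.

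The median signal per array lay between 292 and 322. The GAPDH ratio of 3' over 5' signal, a measure of RNA integrity, was 1.11 to 1.15 in P rats, above its range in NP.P (1.08 to 1.10) and P.NP rats (1.07 to 1.10) and overlapping that in NP rats (1.03 to 1.13), and its part in the strain differences was not tested. The ratio for beta-actin ranged from 1.85 to 2.39 and overlapped in the 4 strains. The 10 measured osteoblast and bone matrix markers had mean signals from 1978 to 82345, and the 11 measured erythroid markers from 3348 to 49193. The 9 measured skeletal muscle markers ranged from 14979 to 71848, and the 8 measured cartilage markers from 1708 to 61393. Of the 12 hepatocyte markers, 10 fell below the filter, and the mean signals of all 12 lay between 8.90 and 227. No array was a copy of another, and their number limits the precision of all values. Since probes differ in how well they bind, a percentile or a sum of signals over probe sets describes array signal and was not read as a level of one gene's RNA against another's.

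The RefSeq promoter table (build GRCr8), which gives for each gene the 250 bases before the transcription start and the 50 after it, held 7 of the 8 genes and Adh1c. Aldh2 was not matched. The 3 promoters printed here belong to Cat, which differed among the strains, to Adh5, which did not pass the test, and to Cyp2e1, which had a low and scattered signal. They are written 5′ to 3′ on the gene's strand, from chr3:110329477-110329776 (minus strand) for Cat, chr2:229648307-229648606 (plus strand) for Adh5 and chr1:205269717-205270016 (plus strand) for Cyp2e1. The reference is the BN strain, and the sequences of the P and NP strains were not read. Capitals mark every match on either strand to 6 searched motifs, none of which overlap here: the CCAAT box (CCAAT), the GC box (GGGCGG), the TATA box (TATAAA), the core of the antioxidant response element (TGACNNNGC), a GATA motif (AGATAA) and an E-box (CACGTG).
Cat: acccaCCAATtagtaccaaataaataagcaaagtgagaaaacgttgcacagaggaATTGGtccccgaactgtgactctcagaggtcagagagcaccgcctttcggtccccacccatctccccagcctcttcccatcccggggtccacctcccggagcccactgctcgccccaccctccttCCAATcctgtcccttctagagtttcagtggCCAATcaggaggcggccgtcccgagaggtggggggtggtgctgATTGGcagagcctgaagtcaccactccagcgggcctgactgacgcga
Adh5: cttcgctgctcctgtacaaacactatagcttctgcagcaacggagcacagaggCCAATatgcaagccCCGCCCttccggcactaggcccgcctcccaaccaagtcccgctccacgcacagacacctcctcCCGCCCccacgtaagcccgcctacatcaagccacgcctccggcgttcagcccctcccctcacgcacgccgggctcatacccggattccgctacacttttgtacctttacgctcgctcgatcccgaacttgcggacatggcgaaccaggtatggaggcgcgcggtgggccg
Cyp2e1: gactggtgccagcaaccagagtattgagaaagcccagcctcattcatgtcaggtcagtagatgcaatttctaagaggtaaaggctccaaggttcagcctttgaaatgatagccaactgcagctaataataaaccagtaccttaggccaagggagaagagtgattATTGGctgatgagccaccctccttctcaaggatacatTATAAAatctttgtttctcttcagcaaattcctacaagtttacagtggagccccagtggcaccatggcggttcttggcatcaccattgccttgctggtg

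The Cat promoter held 5 CCAAT boxes and none of the other 5 motifs, whereas 37.5% of 33465 RefSeq promoters of the same length held at least 1 CCAAT box. Adh5 had 2 GC boxes, a motif present in 33.1% of promoters, and 1 CCAAT box. Cyp2e1 had the only TATA box of the group (14.2% of promoters) and 1 CCAAT box. The windows of Adh5, Aldh9a1, Aldh3a2, Aldh7a1 and Cat contained 28, 21, 19, 16 and 13 CpG dinucleotides, against a median of 7 over all promoters, and those of Adh1c, Aldh1a1 and Cyp2e1 contained 3, 1 and 1. These last 3 genes were also the ones with the widest spread between rats of a strain, with within-strain SDs of 0.49, 0.54 and 0.50 on the log2 scale, while the 5 others had SDs from 0.08 to 0.19. The same 3 genes also had the lowest mean signals, at the 44.8th, 64.5th and 41.9th percentiles of all probe sets. The 5 others lay from the 72.5th to the 97.3rd, and the part of signal level in the spread was not tested. The pattern of CpG counts and spread was seen after the values were known and is a description of 8 genes. A match to a motif is not evidence of binding. None of the members lies on chromosome 4, the chromosome of the transferred segment.

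Aldh2, whose product oxidizes acetaldehyde in mitochondria, had a lower signal in both strains on the P background. The signals were 4571, 4359, 4866, 4723 and 4456 in the NP rats, 4507, 4559, 4353, 4279.8 and 4283 in the NP.P rats, 3975, 3800.3, 4141, 3687 and 3823 in the P.NP rats, and 3851, 3749, 3627, 3791 and 3919 in the P rats. All 10 rats on the P background lay below all 10 on the NP background, which was the case, in either direction, for 1.83% of the 18625 probe sets tested. The mean was 4595 ± 203 (SD, n = 5) for NP, 4396 ± 129 for NP.P, 3885 ± 176 for P.NP and 3787 ± 110.1 for P rats.

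Strain differences were tested with limma on the log2 signals in 1 fit over the 20 arrays. Probe sets were kept if their mean reached the 40th percentile, a signal of 169.7, and p values were adjusted by Benjamini-Hochberg over all 18625 kept, at a false discovery rate of 10%. Aldh2 differed among the 4 strains (limma F test, adjusted p = 0.00239). Averaged over both strains of each background, it was lower on the P background by a log2 difference of -0.23 (standard error 0.04, 95% interval -0.31 to -0.15, adjusted p = 0.000316), a ratio of 0.853. Between the inbred strains, P rats were lower than NP rats by -0.28 (standard error 0.05, adjusted p = 0.0034). Within a background the transferred segment made no difference past the threshold, with -0.06 between NP.P and NP rats (95% interval -0.17 to 0.05, adjusted p = 0.672) and 0.04 between P.NP and P rats (95% interval -0.08 to 0.15, adjusted p = 0.952). The calls of Aldh2 in the F test, between the backgrounds and between P and NP rats held in every alternative tried. In bulk femur RNA, fewer cells that express a gene and less of its RNA per cell cannot be told apart.

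Cat encodes catalase, the peroxisomal enzyme that breaks down hydrogen peroxide and can oxidize ethanol with it. Its signals were 8230.3, 8831, 7949, 8204 and 8339 in the NP rats, 9328, 9369, 9513, 10602 and 9701 in the NP.P rats, 9312, 9853, 10920.4, 9868 and 10322 in the P.NP rats, and 8719, 9917, 10562, 9273 and 9250.25 in the P rats. NP rats were thus the low group, with a mean of 8311 ± 324 (SD, n = 5) against 9703 ± 523 for NP.P, 10055 ± 602 for P.NP and 9544 ± 709.8 for P rats. The NP arrays did not overlap the NP.P arrays or the P.NP arrays but met the lowest P array, and the other 3 strains overlapped one another.

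Cat differed among the strains (limma F test, adjusted p = 0.0278) and was higher on the P background by a log2 difference of 0.12 (standard error 0.05, 95% interval 0.03 to 0.22, adjusted p = 0.0714). This background call was lost without any 1 of 9 arrays (NP replicates 3 and 4, NP.P replicates 1, 2 and 3, P.NP replicates 3 and 5, and P replicates 2 and 3), with adjusted p values from 0.103 to 0.128, and also when no filter was applied (adjusted p = 0.137). The F test call held in all of these. Against NP rats, the difference was 0.22 in NP.P rats (standard error 0.06, adjusted p = 0.11) and 0.20 in P rats (standard error 0.06, adjusted p = 0.112), neither past the threshold. Both passed without NP replicate 2 (adjusted p = 0.0893 and 0.0811) and without P replicate 1 (adjusted p = 0.0976 and 0.0723). Between P.NP and P rats it was 0.08 (95% interval -0.06 to 0.21, adjusted p = 0.867). The effect of the P segment on the NP background minus its effect on the P background was 0.30 (standard error 0.09), with a limma p of 0.004 before and an adjusted p of 0.258 after correction over all probe sets.

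**Figure D1:**
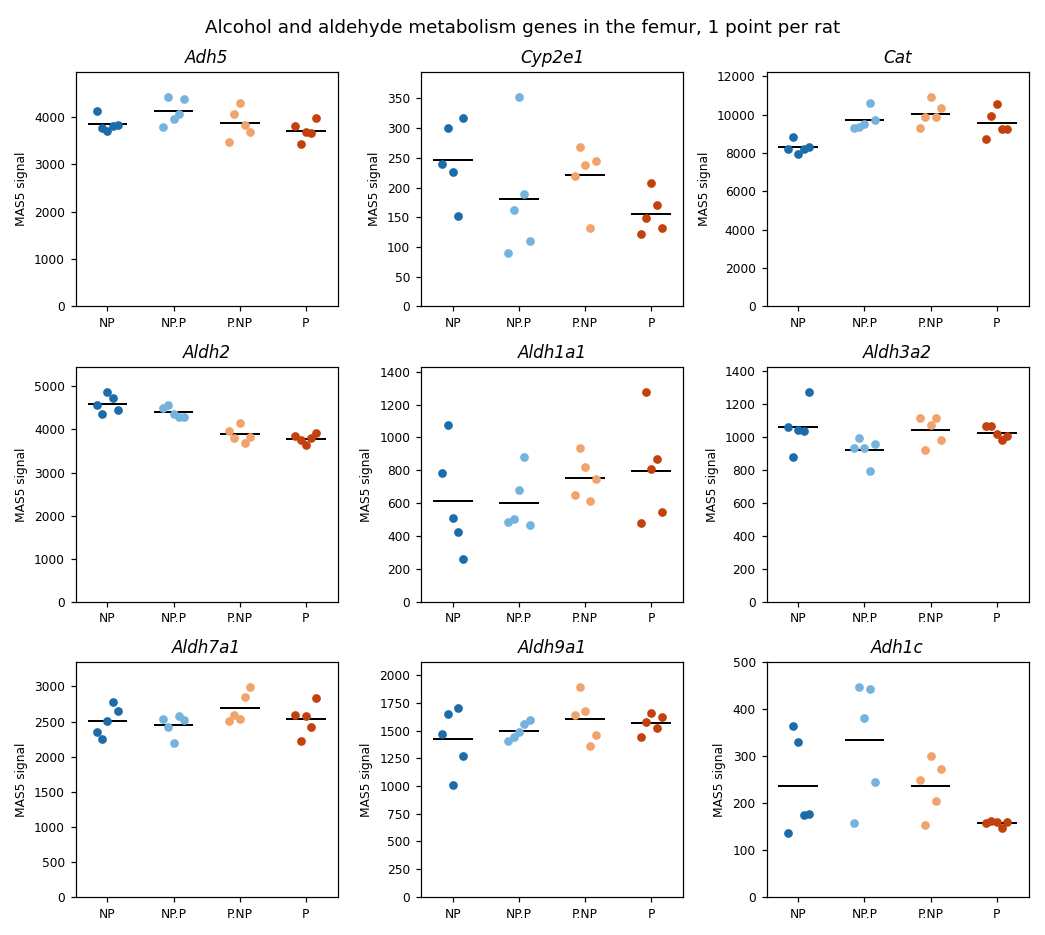
MAS5 signal (linear scale, from 0) of the 8 genes and of Adh1c at its probe set above the filter in the femora of the 4 strains. Each point is 1 rat and each line the mean of 5. Aldh2 is lower in all 10 P and P.NP rats than in all 10 NP and NP.P rats, and Cat is lowest in NP rats, at 7949 to 8831.

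Counted over the 8 genes, 2 differed among the strains in the F test, Aldh2 and Cat, where 18.2% of all probe sets tested did. Between the backgrounds 2 of 8 were called, against 22.5% of all probe sets. Aldh2 was the 1 lower on the P background, where 11.3% of probe sets were lower, and Cat the 1 higher, where 11.1% were. Between P and NP rats 1 of 8 was called, Aldh2, against 5.36% of probe sets in either direction and 2.94% lower in P rats. These shares are so close to those of all probe sets, with so few genes, that they say nothing particular about the pathway. The median background difference of the 8 was 0.07 on the log2 scale, and 0.02 over all probe sets tested.

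For the transferred segment itself, limma called 0 of the 8 between NP.P and NP rats (2.3% of all probe sets), 0 between P.NP and P rats (0.231%) and 0 for the interaction of segment and background (0.317%). At an unadjusted p under 0.05 there were 2 of 8 between NP.P and NP rats, Cat and Aldh3a2 (13.1% of all probe sets), 0 between P.NP and P rats (7.7%) and 1 for the interaction, Cat (9.71%). The unequal-variance test of the methods, run on the same values, called 0 of the 8 between NP.P and NP rats (0.0537% of all probe sets) and 0 between P.NP and P rats (0%), with 1 (10.7%) and 0 (7.38%) of the 8 at an unadjusted p under 0.05. Arrays that did not overlap were found for Cat between NP.P and NP rats (3.28% of all probe sets), for Cat and Aldh2 between P.NP and NP rats (6.71%), for Aldh2 between P and NP rats (4.71%), and for none of the 8 between P.NP and P rats (1.73%).

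**Figure D2:**
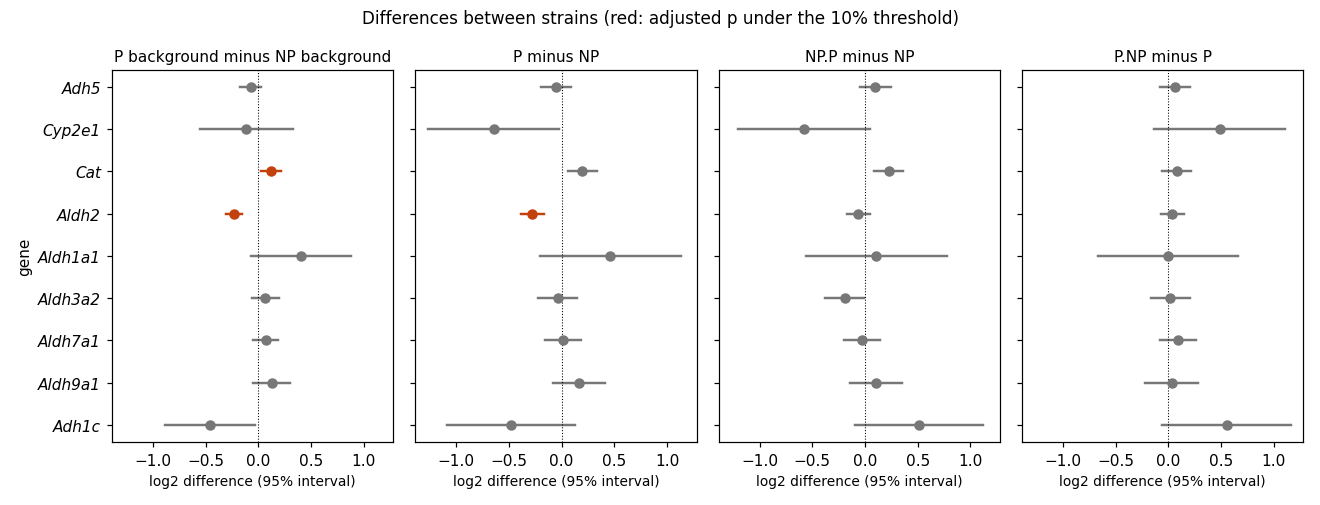
Log2 differences of the 8 genes and Adh1c in 4 comparisons, with 95% intervals from limma; red marks an adjusted p under the threshold. Aldh2 (-0.23) and Cat (0.12) pass between the backgrounds, Aldh2 (-0.28) passes between P and NP rats, and no gene passes in either comparison within a background.

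Adh5 encodes the glutathione-dependent dehydrogenase that clears formaldehyde, an ancient enzyme of nearly all cells. Its signals were 4128, 3769.7, 3690.5, 3804 and 3820.0 in NP rats, 3779, 4417, 3963, 4055 and 4383 in NP.P rats, 3476, 4057, 4292, 3834 and 3685 in P.NP rats, and 3799.9, 3429.9, 3682, 3663 and 3977 in P rats. The 4 strains overlapped, and the background difference was -0.07 on the log2 scale (95% interval -0.17 to 0.03, adjusted p = 0.341). That interval was narrower than those of the more scattered genes Cyp2e1, Adh1c and Aldh1a1 that follow. It still includes changes as large in size as the 0.12 called for Cat.

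Cyp2e1 is best known as the ethanol-inducible cytochrome P450 of the liver. In the femur its mean signal lay just above the filter, at the 41.9th percentile of all probe sets. The signals were 239, 301, 226, 153 and 317 in NP rats, 89.1, 162, 352, 189 and 110.2 in NP.P rats, 220.1, 269, 237, 132 and 244 in P.NP rats, and 121.5, 149, 207, 170.1 and 132 in P rats. All strains overlapped, with means of 247 ± 65.4 (SD, n = 5) for NP, 180.3 ± 104 for NP.P, 220.5 ± 52.4 for P.NP and 156 ± 34.1 for P rats. Both strains with the P segment had lower means than the strains with the NP segment, but neither difference passed, at -0.58 between NP.P and NP rats (standard error 0.30, adjusted p = 0.423) and 0.49 between P.NP and P rats (standard error 0.30, adjusted p = 0.768). Between P and NP rats it was -0.64 (95% interval -1.27 to -0.02, adjusted p = 0.294). The difference between NP.P and NP rats depended on single arrays, being -0.37 without NP.P replicate 1 and -0.86 without NP.P replicate 3. The F test of Cyp2e1 missed the threshold (adjusted p = 0.299) and passed without NP.P replicate 3 (adjusted p = 0.0704).

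Adh1c, the class I enzyme that carries out most ethanol oxidation in the liver, was also near the filter. At its higher probe set the signals were 135, 364, 331, 174 and 176 in NP rats, 158, 447, 382, 443 and 245 in NP.P rats, 250.2, 154, 301, 204 and 272 in P.NP rats, and 157, 162, 161, 147 and 159.9 in P rats. The P rats lay together at the low end, with an SD of 6.14, against SDs of 104 for NP, 128 for NP.P and 58.0 for P.NP rats. Adh1c missed the threshold in the F test (adjusted p = 0.124) and between the backgrounds (-0.46, standard error 0.21, adjusted p = 0.141). Quantile normalization took its F test past the threshold, with an adjusted p of 0.084, as did leaving out NP replicate 1, NP replicate 2 or NP.P replicate 1, with adjusted p values of 0.0977, 0.0767 and 0.0266. The background difference passed without NP replicate 1 (-0.54, adjusted p = 0.0719) and without NP.P replicate 1 (-0.58, adjusted p = 0.0385). The other probe set of Adh1c fell below the filter, with signals from 23.0 to 207, and did not follow the first, with means of 138.6 for NP, 121 for NP.P, 102 for P.NP and 127 for P rats.

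The remaining aldehyde dehydrogenases did not pass the F test. Aldh1a1, a cytosolic enzyme that makes retinoic acid and is widely used as a marker of stem and progenitor cells, had the widest scatter of the 8, with signals of 784, 1073, 507, 426 and 258 in NP rats, 486, 503, 678, 879 and 467 in NP.P rats, 647, 937, 822, 615 and 746 in P.NP rats, and 478, 1275, 810.3, 868 and 543 in P rats. Its background difference of 0.41 was the largest in size of the 8 but had a standard error of 0.23 (95% interval -0.07 to 0.88, adjusted p = 0.24), and it passed once, without NP replicate 2 (adjusted p = 0.0867). Rats of a single strain thus differed more than the strain means did.

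Aldh3a2, the fatty aldehyde dehydrogenase of the endoplasmic reticulum, had its lowest mean in NP.P rats. Its signals were 1064, 878, 1043, 1040.0 and 1274 in NP rats, 936, 994, 935, 796 and 960.5 in NP.P rats, 1114, 923, 1073, 1117 and 981 in P.NP rats, and 1066, 1065, 1016.5, 981 and 1005.5 in P rats. The NP.P and NP arrays overlapped, and the difference between them was -0.19 (standard error 0.09, adjusted p = 0.356).

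Aldh7a1, which acts in lysine breakdown, had signals from 2254 to 2785 for NP, 2198 to 2585 for NP.P, 2509 to 2988 for P.NP and 2222 to 2836 for P rats, and a background difference of 0.07 (95% interval -0.05 to 0.19, adjusted p = 0.415). Aldh9a1, an aminoaldehyde dehydrogenase of the carnitine and polyamine pathways, ranged from 1008 to 1702 for NP, 1405 to 1599.6 for NP.P, 1362 to 1893 for P.NP and 1443 to 1664 for P rats, with a background difference of 0.13 (95% interval -0.05 to 0.30, adjusted p = 0.32). For both genes all strains overlapped.

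Read against the tightness of each gene, the small Aldh2 difference stood out from a small spread. Its within-strain SD was 0.05 on the log2 scale, lower than that of all but 0.295% of the probe sets tested, whose median was 0.20. Cat (0.08) and Adh5 (0.09) were also tight, at the 3.58th and 5.58th percentiles, while Cyp2e1, Adh1c and Aldh1a1 lay between the 94.4th and 96.0th. A difference of the size seen for Aldh2 could have gone uncalled in Cyp2e1, Adh1c or Aldh1a1, whose standard errors for the background difference were 0.21, 0.21 and 0.23.

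The 6 lists of related genes were read in the same way, each gene by its brightest probe set on average. Of 75 listed genes, 66 had a named probe set and 59 passed the filter. The F test called 13 of the 59 (22%), against 18.9% of all 10665 genes read so, and between the backgrounds 5 were higher and 7 lower on the P background (20.3%, against 23% of all genes).

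The list of aldehyde and carbonyl reductases also held Esd, which encodes no reductase but the enzyme that completes the formaldehyde route begun by Adh5. Esd was lower on the P background, with means of 5423 ± 371 (SD, n = 5) for P.NP and 5395 ± 270.3 for P rats, and of 7583 ± 1018 for NP and 8079 ± 935 for NP.P rats (log2 difference -0.53, standard error 0.07, adjusted p = 1.59e-05). Akr1b8, an aldo-keto reductase gene, differed with the chromosome 4 segment and missed the threshold between the backgrounds (-0.19, adjusted p = 0.102), with means of 798 for NP.P and 614 for P rats, the strains with the P segment, and of 389.98 for NP and 391 for P.NP rats. It was the 1 gene of the 59 called between NP.P and NP rats (1.04, adjusted p = 8.72e-05) and the 1 called between P.NP and P rats (-0.65, adjusted p = 0.0192). Over all probe sets tested, 2.3% and 0.231% were called in these comparisons. Akr1b1, the aldose reductase gene, passed the F test as well (adjusted p = 0.0864). Esd, Akr1b8 and Akr1b1 were 3 of the 11 tested genes of the list. The chromosomes of the related genes were not looked up.

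Of the other alcohol dehydrogenases, 7 of 11 measured genes passed the filter and 2 differed in the F test. Hsd17b4, a peroxisomal enzyme of fatty acid oxidation, was lower on the P background (-0.22, standard error 0.04, adjusted p = 0.00073), as Aldh2 was, with means of 2796 ± 133 (SD, n = 5) for NP, 2559 ± 101.1 for NP.P, 2317 ± 98.3 for P.NP and 2283.5 ± 77.5 for P rats. Dhrs3, a retinal reductase, passed the F test (adjusted p = 0.0693) but not between the backgrounds (0.06, adjusted p = 0.44). The gastric and hepatic enzymes Adh7 and Adh4 fell below the filter, with strain means of 4.67 to 13.5 and 35.4 to 58.5. Of the 11 other aldehyde dehydrogenases tested, 1 passed the F test, Aldh3b1 (adjusted p = 0.0525), with means of 629 for NP and 644 for P rats, and of 484 for NP.P and 513 for P.NP rats.

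Cyb5a, the cytochrome b5 that passes electrons to P450 enzymes, was lower on the P background (-0.41, standard error 0.06, adjusted p = 5.06e-05) and was the 1 of 6 partners of microsomal oxidation in the F test. Acss2 and Acss3, which activate acetate and propionate to their coenzyme A esters, were higher there, by 0.30 (standard error 0.07, adjusted p = 0.00675) and 0.36 (standard error 0.08, adjusted p = 0.00384), and were 2 of the 8 genes of acetate use. In the list of peroxisomes and hydrogen peroxide, 4 of 16 passed the F test. Prdx2, the peroxiredoxin abundant in red cells (-0.26, adjusted p = 0.00154), Sod1, a superoxide dismutase (-0.16, adjusted p = 0.0208), and Gpx4, a lipid peroxidase (-0.14, adjusted p = 0.0386), were lower on the P background, where Cat was higher, and Pex13, a peroxisomal import factor, was higher (0.17, adjusted p = 0.035). Aldh6a1 (0.23, adjusted p = 0.0497), Akr7a2 (-0.17, adjusted p = 0.0536) and Pex7 (0.23, adjusted p = 0.0997) were called between the backgrounds but not in the F test, and are named after their values were seen.

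**Figure D3:**
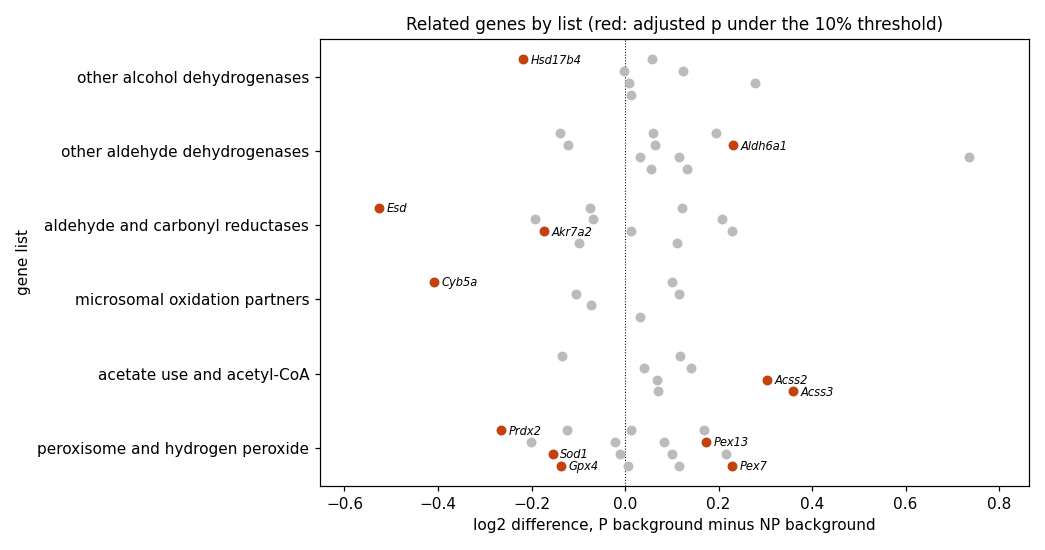
Log2 difference between the P and NP backgrounds for the 59 tested genes of 6 related lists, 1 point per gene, with red and a name for an adjusted p under the threshold. Of the named genes 5 lie to the right (higher on the P background), Acss3 and Acss2 farthest, and 7 to the left, Esd and Cyb5a farthest.

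Cell type markers were set beside the shares of all 10665 genes, of which 11% were called higher and 12% lower on the P background. Between NP.P and NP rats 2.3% of all probe sets were called. All 11 measured erythroid markers (of 14 listed) were lower on the P background, with a summed signal of 185672 to 218677 for NP, 226663 to 246294 for NP.P, 173998 to 192349 for P.NP and 185537 to 212797 for P rats. Between P and NP rats, whose sums overlapped, 1 of the 11 was called lower, against 2.94% of all probe sets. Megakaryocyte markers summed to 46043 to 55281 for NP, 33738 to 43844 for NP.P, 34731 to 38148 for P.NP and 29696 to 37227 for P rats, with 3 of 6 lower and 1 higher on the P background and 4 lower for NP.P against NP. Macrophage markers summed to 22399.5 to 27393, 21053 to 26065, 20125 to 26212 and 17976 to 22605 in the same order, with 3 of 7 lower and 1 higher. The lowest mean signal of any marker in these 3 lists was 468. Marrow adipocyte markers were mixed, with 3 of 8 tested lower and 2 higher on the P background and 2 higher for NP.P against NP, and the 9 measured summed to 26539 to 35584 for NP, 32539 to 38679 for NP.P, 26755 to 33676 for P.NP and 26500.1 to 31420.1 for P rats. B lymphoid markers went the other way from the erythroid ones, with 2 of 4 higher on the P background and 2 lower for NP.P against NP, at sums of 12333 to 15593, 9870.4 to 14364, 12210.2 to 16049 and 13659 to 17183 in the same order. Of the other lists, osteoblast markers were higher on the P background in 2 of 10, muscle markers in 1 of 9, granulocyte markers lower in 1 of 5, and cartilage (8 tested) and hepatocyte (2 tested) markers in none in either direction. With so few genes, the counts of these last lists are too close to the shares of all genes to be read. Cat, an abundant enzyme of red cells, ran against the erythroid markers between the backgrounds, while Esd, Prdx2 and Aldh2 ran with them. Between NP.P and NP rats the erythroid median was 0.25 on the log2 scale. There 3 of the 11 were called higher, among them Kel, which the paper places in the transferred segment. None of Cat (0.22), Prdx2 (0.19), Esd (0.095) and Aldh2 (-0.06) passed in that comparison. Between P and NP rats, where the erythroid median was -0.07, Aldh2 differed by -0.28. In that comparison the megakaryocyte median was -0.63, with 5 of 6 called lower, and the macrophage median was -0.26, with 3 of 7 called lower. No marker of these 2 lists was called higher there, while 1 of 8 marrow adipocyte markers was. The part of these shifts in the differences of Aldh2, Cat, Esd and Prdx2 was not tested.

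The genes whose log2 signals followed those of the 2 called members most closely over the 20 arrays were sought among 10656 others. For Aldh2 these were Lcn2 (Pearson's r = 0.914), RT1-CE10 (0.913) and Irak1 (0.910), each with high means on the NP and low means on the P background, such as 13720.3 for NP, 10795 for NP.P, 856 for P.NP and 902 for P rats at Lcn2. With the strain means removed, r was 0.27, 0.45 and 0.77, so that Irak1 also followed Aldh2 among rats of the same strain. For Cat they were Vash2 (0.804), Retreg1 (0.780) and Tsc22d3 (0.775), with 0.66, 0.62 and 0.51 within strains, and each had its lowest mean in NP rats, although Vash2 did not pass the F test (adjusted p = 0.135). These are descriptions picked as the highest of many, over arrays that share strain.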

How the data were processed

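Femur RNA of 20 rats, 5 per strain, was hybridized to 1 array per rat. The authors analyzed the images with GCOS and deposited MAS5 signals, linear intensities whose trimmed means are equal on all arrays. The robust multichip average values and detection calls of the methods were not used here. Signals under 1 were set to 1 and taken to log2, and limma 3.58.1 (R 4.3.3) was fitted over 4 strain means with 16 residual degrees of freedom, after a test on simulated data. The contrasts were the F test over the strains, P background minus NP background, P minus NP, NP.P minus NP, P.NP minus P, and the interaction. Of 31099 probe sets 57 were controls and left out. Alternatives varied the filter (none, or the 60th percentile), the scaling (quantile), the offset before the log (21.7), the variance model (a mean-variance trend), the threshold (5%) and the arrays fitted (a strain pair by itself, or 1 array left out), and added a replicate block and the unequal-variance test of the methods. Named were all probe sets of the genes, related genes that passed the F test (at most 4 per list), and the 3 genes most like each called member. The members and lists were chosen with earlier results of these data known. Deviations from the strain means had a mean correlation of 0.046 (at most 0.33) between same-numbered arrays of different strains, against -0.011 for different numbers. Of the 30 same-numbered pairs, 5 had a correlation over 0.1. The number was not taken to pair the arrays, and the fit with it as a block is given at the end. Python 3.11.15 and matplotlib 3.10.9 drew the figures.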

Additional observations from a re-analysis of the deposited data

Results flagged for a closer look

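In 3 of 40 sets of 5 arrays (10 probe sets in 4 strains), 1 array lay far from the other 4 on the log2 scale. The gap to its neighbour exceeded 0.71 of the range, and chance alone gives such a gap in about 1 set in 20. All 3 were low arrays, and their signals are given here on the linear scale, where the gaps were not computed. The Aldh3a2 signal of NP.P replicate 4 was 796, with the other NP.P arrays at 935 to 994. The Cyp2e1 signal of P.NP replicate 4 was 132, with the others at 220.1 to 269. At the lower probe set of Adh1c, NP replicate 5 had a signal of 52.3, with the others at 148 to 185.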

How the results depend on the processing

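Aldh2 passed between the backgrounds in all 27 alternatives, with log2 differences from -0.24 to -0.22. The count of the 8 genes called between the backgrounds fell from 2 to 1 without the filter and at a false discovery rate of 5%, where Cat was lost, and ran from 1 to 3 with each array left out. Between P and NP rats the count rose from 1 to 2 with the filter at the 60th percentile (Cat, adjusted p = 0.0773), with quantile normalization (0.0761) and with a mean-variance trend (0.0615), and ran from 1 to 2 with each array left out. Between NP.P and NP rats it rose from 0 to 1 with the 60th percentile filter (Cat, adjusted p = 0.066) and with the trend (0.0557), and ran from 0 to 1 with each array left out. The F test count ran from 2 to 3 with each array left out, and the counts for P.NP against P and for the interaction stayed at 0. A stricter threshold can only lower a count, and for the other settings the cause was not tested. With the replicate number as a block the counts were unchanged, at 2 in the F test, 2 between the backgrounds, 1 between P and NP rats and 0 in the other 3 comparisons, and 7 of 20 arrays were closest to arrays of their own number. The sign turned in 29 cases, none of them called: the Cyp2e1 interaction became 0.011 with quantile normalization, and the other 28 came from leaving out 1 array, for differences of at most 0.11 in size. With each array left out, these ran over the following log2 differences. For NP.P minus NP they were -0.16 to 0.35 in Aldh1a1, -0.066 to 0.011 in Aldh7a1 and -0.016 to 0.17 in Aldh9a1. For P.NP minus P they were -0.17 to 0.19 in Aldh1a1, -0.0091 to 0.0598 in Aldh3a2 and -0.032 to 0.087 in Aldh9a1. For P minus NP they were -0.10 to 0.033 in Aldh3a2 and -0.029 to 0.058 in Aldh7a1. Between the backgrounds Cyp2e1 ran from -0.22 to 0.0301, and the interaction from -0.16 to 0.35 in Aldh1a1 and from -0.38 to 0.12 in Cyp2e1. With 5 arrays a strain, the low and scattered signals of Cyp2e1 and Adh1c limit what could be detected.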
